A study of Mus musculus with 9 samples.

Results

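Cathepsins and other genes of lysosomal antigen processing, 10 in all, were followed through the non-parenchymal cells of mouse livers in which YAP was switched on for 3 or 7 days. They are 6 cysteine cathepsins (Ctsb, Ctsc, Ctsh, Ctsl, Ctss and Ctsz), the aspartic protease Ctsd, the asparaginyl endopeptidase Lgmn, the thiol reductase Ifi30 and the cathepsin inhibitor Cst3. They were taken by name from the 27998 genes of the deposited table. They were read in 2866 myeloid, 1947 endothelial and 3484 lymphoid cells. Droplet-based 3' single-cell RNA-seq had been run on collagenase-treated whole livers of C57BL/6 mice, which gave 9 libraries. The 2 WT libraries came from mice labelled ROSA26-rtTA-IRES-EGFP; WT, fed doxycycline for 7 days. The 4 YAP3d and 3 YAP7d libraries came from mice labelled ROSA26-rtTA-IRES-EGFP; tetYAP, fed doxycycline for 3 and 7 days. All groups therefore carried the rtTA allele and received doxycycline, and the WT libraries match YAP7d but not YAP3d in the time on the drug. According to the study's methods, rtTA lay behind a stop cassette removed by an albumin-driven Cre. The model is thus meant to induce YAP S127A in hepatocytes, and the cells described here are read as their neighbours. Expression of the transgene was not checked by class. The labels give no age and do not say whether each library was a separate mouse. The p-values measure the spread between these libraries.

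Lysosomal proteases cut endocytosed and resident proteins into peptides. In antigen-presenting cells the same enzymes act on the invariant chain Cd74, which occupies the groove of MHC class II molecules until it is degraded. Ctss carries out the last cuts of Cd74 in B cells and dendritic cells, and Ctsl does so in thymic epithelium. Ifi30, also called GILT, reduces disulfide bonds so that proteases can reach folded antigens. Lgmn cuts after asparagine and helps to mature cathepsins, and Cst3, or cystatin C, is a secreted inhibitor of cysteine proteases. In the liver, resident macrophages and sinusoidal endothelial cells are known for a large load of endocytosed material.

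The files held 63380159 counts of unique molecular identifiers (UMIs, single captured transcripts) in 8562 cells, of which 8527 passed a minimum of 200 detected genes. Libraries held 293 to 2554 cells and medians of 3190 to 11472 UMIs per cell, and the 3 highest medians were those of YAP7d. Of 8515 cell barcodes, 46 occurred in more than 1 library. Clusters were built without the 10 genes and named by fixed markers, so a class is called by the type it resembles. Although the tissue is liver, hepatocyte-like cells numbered 1 to 28 per library and are not described. Transcripts of the pseudogene Gm10709 set 5 libraries apart: YAP3d replicates 1 and 2 and all 3 YAP7d libraries held 347 to 611 CPM (counts per 1000000 UMIs), and the other 4 held 3.65 to 11.2. YAP3d replicate 2 also stood apart from the other YAP3d libraries in macrophage-like cells, and the macrophage-like results for Ifi30, Ctss and Ctsb are also given without it where it changes them.

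Levels are given as CPM over the UMIs of one class in one library. They can be compared between classes for a gene, but not between genes. The values below are means over the libraries of all 3 groups with at least 10 cells of a class, and they are a description without a test.

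Macrophage-like cells held the highest mean over all groups for 5 of the 10 genes, and for Ifi30 this order depended on the group. For Ctsb, a broadly expressed endo- and exopeptidase, they held 3924 ± 1172 CPM (SD, n = 9), above the 2074 ± 224 (n = 4) of plasmacytoid dendritic-like cells, the 1360 ± 269 (n = 8) of monocyte-like cells and the 961 ± 126 (n = 9) of endothelial-like cells. Ctsc, which activates granule proteases, was at 1662 ± 199 CPM in macrophage-like and 1065 ± 192 in monocyte-like cells, and the ranges of these 2 classes did not overlap. The next class, type 2 dendritic-like cells, reached 634 CPM of Ctsc in its highest library. Lgmn stood at 1985 ± 204 CPM in macrophage-like cells, and the next classes, monocyte-like (622 ± 342) and endothelial-like cells (616 ± 104), overlapped each other over all groups. Their order depended on the group. In WT (740 against 309 CPM) and YAP3d (634 against 482) the endothelial-like mean was the higher. In YAP7d the monocyte-like mean was (971 against 508). The ranges of these 2 classes did not overlap within WT or within YAP7d. For Ctsd, the main aspartic protease of lysosomes, macrophage-like cells (1361 ± 204 CPM) were followed by NK-cell-like (846 ± 173) and neutrophil-like cells (781 ± 286). Ifi30 was at 845 ± 420 CPM in macrophage-like and 730 ± 211 in type 2 dendritic-like cells, with overlapping ranges. In YAP7d the macrophage-like mean of Ifi30 was the higher (1391 against 899 CPM). In YAP3d (583 against 628) and in WT replicate 2, the 1 WT library with both classes (501 against 634), that of type 2 dendritic-like cells was.

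The other 5 genes had their highest mean over all groups elsewhere. Ctsl, an endopeptidase, stood at 1556 ± 191 CPM (n = 4) in plasmacytoid dendritic-like and 1302 ± 350 (n = 9) in endothelial-like cells, whose ranges overlapped, and at 307 ± 75.0 in macrophage-like cells. The order of the first and second depended on the group. In WT replicate 2, the 1 WT library with both classes, endothelial-like cells held more (1702 against 1589 CPM). In YAP3d (1464 against 1356) and YAP7d (1585 against 1003) the plasmacytoid dendritic-like mean was the higher. In the lymphoid classes its mean was 21.9 to 30.6 CPM. For Ctss, the means over all groups were 3226 ± 479 CPM in monocyte-like and 2782 ± 786 in macrophage-like cells, with overlapping ranges. Type 2 and plasmacytoid dendritic-like cells had medians of 59.9 and 45.5% of the macrophage-like level of the same library. B-cell-like cells, the highest lymphoid class, were at 23.9% (mean 691 ± 103 CPM). The order of monocyte-like and macrophage-like cells also depended on the group. In WT the Ctss mean was 3941 CPM in macrophage-like and 3455 in monocyte-like cells, in YAP3d 2575 and 2963, and in YAP7d 2284 and 3337. Plasmacytoid dendritic-like cells led for Ctsh, an aminopeptidase (1255 ± 222 CPM), and for Ctsz, a carboxypeptidase (822 ± 87.0), each with a range that overlapped that of monocyte-like cells. Cst3 was set apart in type 1 dendritic-like cells at 20119 ± 1658 CPM (n = 4), where its lowest library, at 17690, lay above the highest type 2 dendritic-like library, at 7366.

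**Figure D1:**
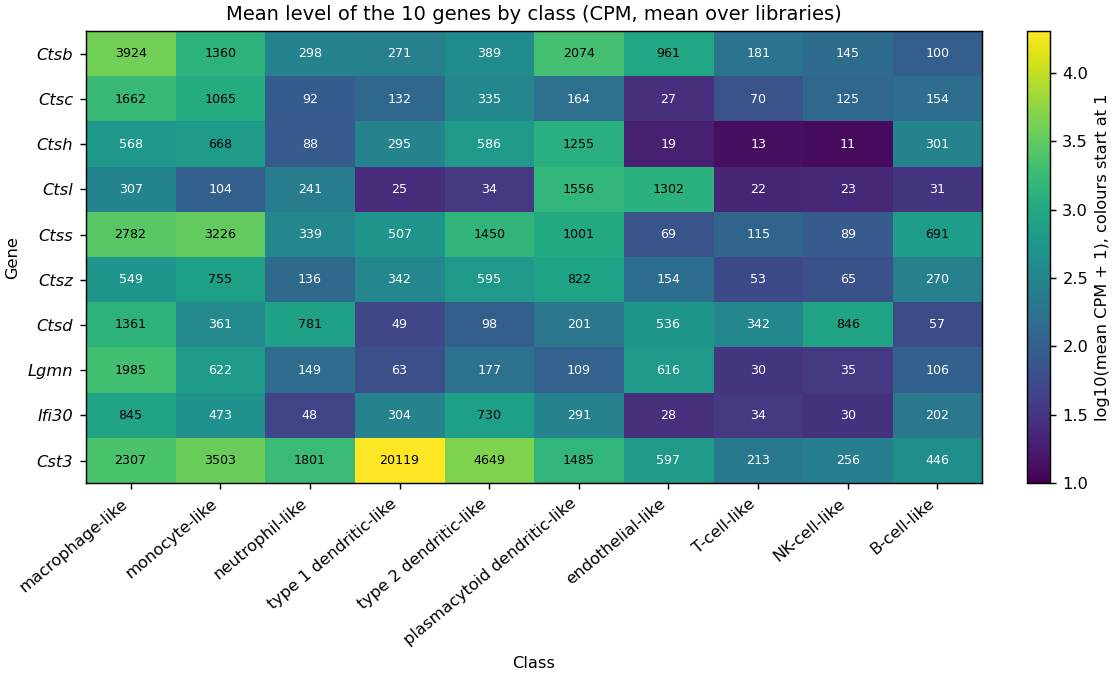
Mean level of each of the 10 genes (rows) in 10 classes (columns), in CPM printed in the cells and as colour on a log10 scale, averaged over the libraries of all groups with at least 10 cells of the class. Along the rows, Ctsl is high in plasmacytoid dendritic-like and endothelial-like cells (1556 and 1302 CPM) and Cst3 in type 1 dendritic-like cells (20119 CPM).

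The patterns of the genes over the 10 classes are compared as a description only, since the classes come from the same libraries. Mean log2 levels of Ctsz and Ctsh had a Pearson correlation of 0.96, those of Ifi30 and Ctss of 0.94, and those of Ctss and Ctsh of 0.93. Ctsl and Ifi30 had a correlation of 0.0013, and Ctsh and Ctsd of -0.38. Of all other genes, the pattern most like that of Ctsh was that of Ly86 (0.99), a partner of an innate immune receptor. For Lgmn, Lamp1, a glycoprotein of the lysosomal membrane, stood second at 0.96 after Idh1 at 0.97. For Ifi30 the most alike was Rassf4 (0.96).

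For the tests, the cells of a class were added up within each library, and the groups were compared with edgeR's quasi-likelihood test, with p-values adjusted over all genes of a class and a threshold of 0.05. The first question was what 7 days of YAP did to these genes in macrophage-like cells. Ifi30 rose, and none of the other 9 genes passed the test. The 2 WT libraries held 598 and 501 CPM of Ifi30, the 4 YAP3d libraries 654, 525, 675 and 480, and the 3 YAP7d libraries 1239, 1462 and 1473. All YAP7d libraries lay above all others, with a mean of 1391 ± 132 CPM (SD, n = 3) against 549 ± 68.8 (n = 2) in WT. The difference was 2.45-fold (log2 1.29, SE 0.28, adjusted p = 0.0255). Against YAP3d, whose mean was 583 ± 95.5 CPM, the log2 difference was 1.29 (SE 0.22, adjusted p = 0.0118), and both comparisons use the same YAP7d libraries. Among the libraries with Gm10709 transcripts, YAP3d held 525 and 654 CPM of Ifi30, below every YAP7d library. With a term for these libraries in the model, the log2 difference from WT was 1.32 and not called (adjusted p = 0.882).

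Ifi30 was 1 of 10 genes called, beside 1.51% of all 6033 genes tested between YAP7d and WT, and 1.04% were called as lower. Between YAP7d and YAP3d it was again 1 of 10, beside 0.680% of all genes. The call against WT was lost without WT replicate 1 (adjusted p = 0.117), WT replicate 2 (0.3998), YAP7d replicate 2 (0.0872) or YAP7d replicate 3 (0.0825), while the log2 difference stayed between 1.22 and 1.47. That against YAP3d was lost without YAP7d replicate 2 (0.0869) or 3 (0.0623), and it passed in 14 of 18 alternatives. Macrophage-like cells of WT were few and shallow, with 29 and 57 cells and medians of 1777 and 7028 UMIs, against 94 to 148 cells and 9132 to 22994 UMIs in YAP7d, and the part of this gap in the result was not tested.

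Several proteases had lower values in YAP7d without passing the test. With all myeloid classes added up instead, the log2 differences of Ctsb (0.13) and Ctss (0.31) were above 0. Ctsb was at 5511 and 5414 CPM in WT, at 3361, 2355, 4591 and 4821 in YAP3d, and at 2805, 3292 and 3170 in YAP7d. The WT and YAP7d libraries did not overlap, and the log2 difference was -0.89 (SE 0.31, adjusted p = 0.146). Ctss, the protease of the last Cd74 cuts, stood at 3925 and 3957 CPM in WT, at 2820, 1729, 3169 and 2583 in YAP3d, and at 2375, 2554 and 1924 in YAP7d, a log2 difference of -0.86 (SE 0.28, adjusted p = 0.118). Both WT libraries were above all 7 YAP libraries for Ctss and for Ctsb. Ctsh was at 624 and 939 CPM in WT and at 359, 446 and 499 in YAP7d (log2 -0.93, SE 0.42, adjusted p = 0.261). The inhibitor Cst3 was at 2742 and 2870 CPM in WT and at 1594, 1965 and 1895 in YAP7d (log2 -0.69, SE 0.36, adjusted p = 0.335). In all, 5 of the 10 genes did not overlap between YAP7d and WT, beside 45.2% of all genes tested, so this share is near the background. DESeq2 called 3 of the 10 genes, Ctss, Ifi30 and Ctsb, beside 205 genes in all.

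The remaining 5 genes overlapped between WT and YAP7d in macrophage-like cells. Ctsc was at 1615 ± 262 CPM in WT and 1751 ± 245 in YAP7d, and Ctsd at 1435 ± 356 and 1435 ± 125. Lgmn stood at 1951 ± 314 and 2138 ± 154 CPM, Ctsl at 350 ± 19.1 and 297 ± 99.98, and Ctsz at 487 ± 193 and 624 ± 17.7. Their log2 differences ran from -0.29 for Ctsl to 0.24 for Ctsz. The median over the 10 genes was -0.18, beside -0.01 over all genes tested.

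**Figure D2:**
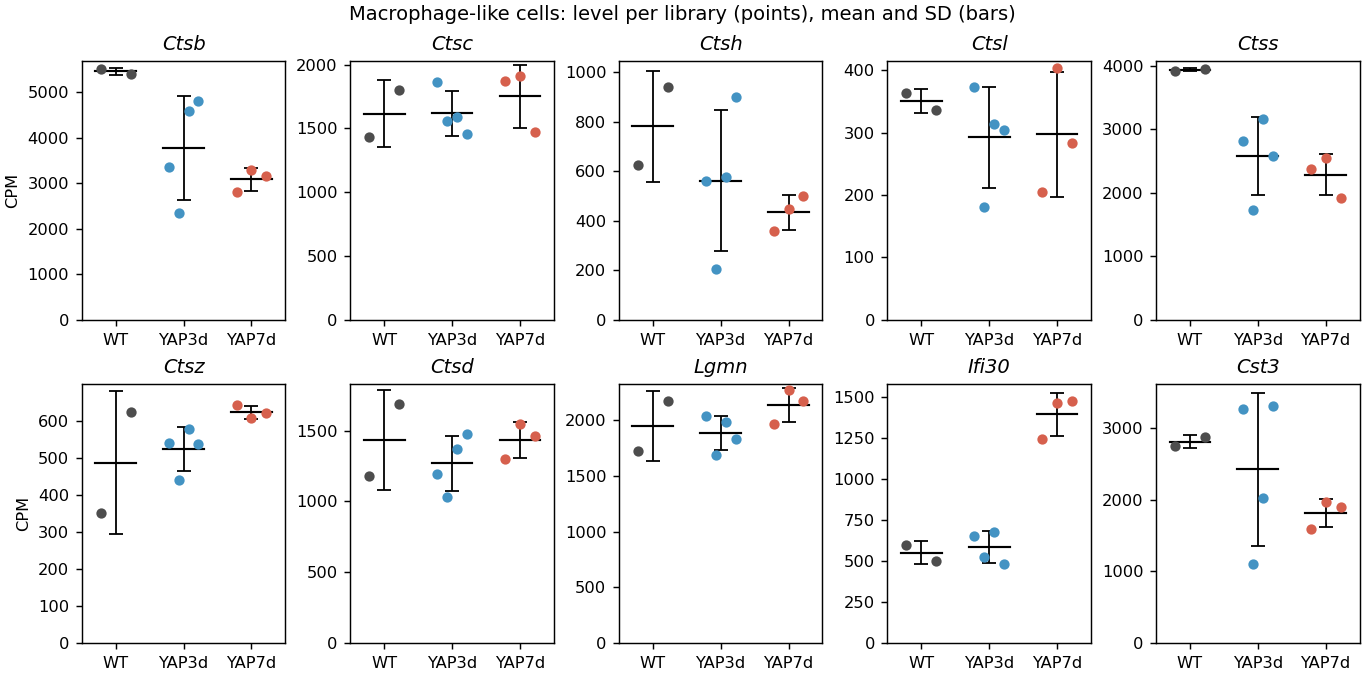
Level of each of the 10 genes in macrophage-like cells, in CPM on the vertical axis, for the WT, YAP3d and YAP7d libraries (points), with the mean (horizontal line) and SD (error bar) of each group. Ifi30 is the gene whose 3 YAP7d libraries (1239 to 1473 CPM) lie above all others, and the 2 WT libraries of Ctss and Ctsb lie above all YAP libraries.

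The MHC class II molecules that these proteases serve were compared in the same cells. Of 8 tested genes of class II loading, 4 fell and all 8 had a log2 difference below 0, with a median of -2.81 beside -0.01 over all genes. Cd74 was at 8097 and 9836 CPM in WT, at 4986, 342, 3711 and 6306 in YAP3d, and at 212, 368 and 488 in YAP7d. YAP3d replicate 2 was at the level of YAP7d, and the other 3 YAP3d libraries lay between the groups. The log2 difference of Cd74 was -4.70 (SE 0.71, adjusted p = 0.0030), and H2-Eb1 (-4.50), H2-Ab1 (-4.44) and H2-Aa (-4.40), chains of the class II molecules, had the same adjusted p. Each of these 4 passed in 16 of 18 alternatives. With all myeloid classes added up the log2 differences were smaller and not called, at -1.74 for Cd74, -1.72 for H2-Eb1, -1.82 for H2-Ab1 and -1.73 for H2-Aa, and with a term for the libraries with Gm10709 transcripts that of Cd74 was -3.65 (adjusted p = 0.375). In the same libraries Ctss was at 3941 ± 22.6 CPM in WT and 2284 ± 324 in YAP7d. The list is no independent support, as its fall was known when it was chosen. Of the summed markers of other cells, those of monocytes stood at 1586 to 1822 CPM in WT and 2404 to 3231 in YAP7d macrophage-like cells, and those of endothelial cells at 1157 to 1272 and 319 to 341, and their part in these differences was not tested.

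YAP3d replicate 2 stood low in 7 of the 10 genes. It held the lowest level among all 9 libraries for Ctsb (2355 CPM), Ctss (1729), Ctsh (206), Cst3 (1096), Ctsl (180), Ctsd (1035) and Lgmn (1691, beside 1729 in WT replicate 1). How many of all genes had their lowest level in YAP3d replicate 2 was not counted. The 7 genes therefore have no background beside them and are not read as a trait of this list. Ifi30 of YAP3d replicate 2, at 525 CPM, lay within the WT range of 501 to 598. Without this library, Ifi30, Ctss and Ctsb were called between YAP7d and WT, 3 of the 10 genes, and the log2 difference of Ifi30 was 1.33 (adjusted p = 0.0030). Against YAP3d that of Ifi30 was then 1.27 (adjusted p = 0.0023).

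**Figure D3:**
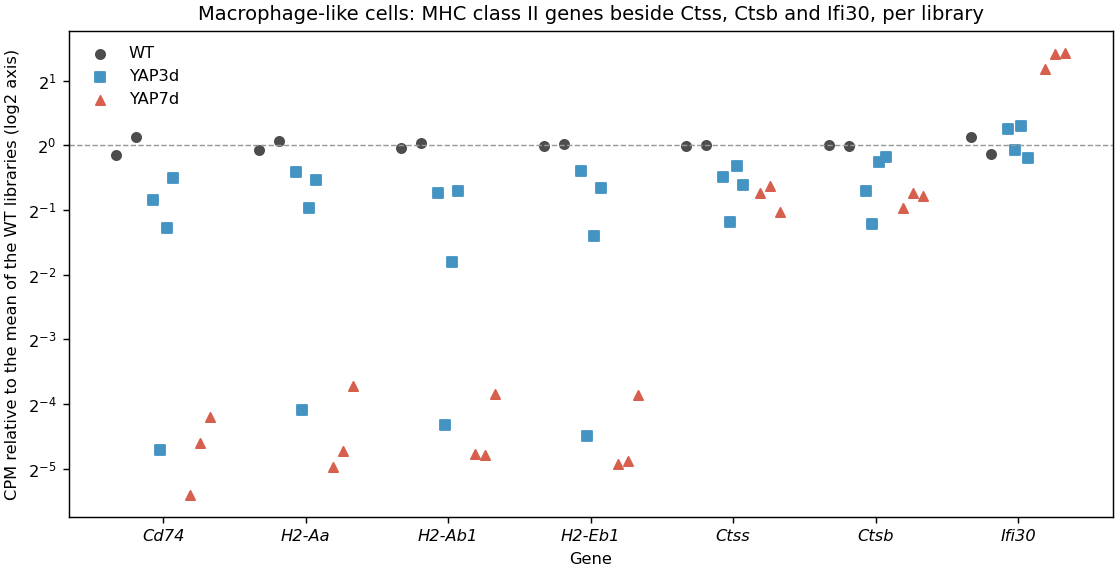
CPM in macrophage-like cells of each library divided by the mean of the 2 WT libraries, on a log2 axis, for 4 class II genes and for Ctss, Ctsb and Ifi30, with 1 symbol per group. The class II genes of YAP7d and of YAP3d replicate 2 lie far below the dashed WT line, Ctss and Ctsb of YAP7d lie nearer to it, and Ifi30 of YAP7d lies above it.

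Beyond class II, 82 other lysosomal genes were listed: further cathepsins and cystatins, the proton pump that acidifies lysosomes, membrane proteins, hydrolases, and genes of sorting and transcription. In macrophage-like cells 59 of them were tested between YAP7d and WT. Of these, 1 fell and 0 rose, beside 1.04% of all genes called as lower and 1.51% called in either direction, so this is near the background. Of the 59, 46 had a log2 difference below 0 (median -0.31, beside -0.01 over all genes). The 1 was Pla2g15, a lysosomal phospholipase, at 153 ± 32.2 CPM in WT and 55.0 ± 13.6 in YAP7d (log2 -1.61, SE 0.37, adjusted p = 0.0384). It passed the threshold in 8 of 18 alternatives, and with all myeloid classes added up its log2 difference was -0.04.

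In monocyte-like cells 0 of the 10 genes passed the test, beside 0.687% of 7713 genes called between YAP7d and WT and 0.350% called as lower. At an unadjusted p under 0.05 there were 3, Lgmn, Ctsh and Ctsd, beside 1060 of all genes, and DESeq2 called 1, Lgmn, beside 95. Lgmn was at 245 and 374 CPM in WT, at 450, 699 and 297 in YAP3d replicates 2, 3 and 4, and at 777, 1228 and 909 in YAP7d. The YAP7d libraries lay above the other 5, with a log2 difference from WT of 1.61 (SE 0.36, adjusted p = 0.0569). YAP3d replicate 1 had 7 monocyte-like cells and was left out, and WT replicate 1 and YAP3d replicate 3 had 12 each. Without YAP3d replicate 3 or without YAP3d replicate 4, Lgmn was called.

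Monocyte-like cells were made up of 3 clusters that differ in Lgmn. The leading genes of cluster 5 included Chil3 and F13a1, those of cluster 14 Cx3cr1 and Trem2, and those of cluster 18 Ace and Eno3. In cluster 14 Lgmn was at 784 CPM in WT replicate 2 and at 1110, 1545 and 1331 in YAP7d. In cluster 5 it was at 99.7 CPM in WT replicate 2 and at 334, 356 and 354 in YAP7d. In cluster 18 it was at 235 CPM in WT replicate 2, at 223 and 189 in YAP3d replicates 2 and 4, and at 287 and 317 in YAP7d replicates 1 and 3, the other YAP7d library having under 10 cells. So the YAP7d values were above this WT library within each of these clusters, while WT replicate 1 had under 10 cells in every cluster. Cluster 14 took 30 and 41.7% of the monocyte-like cells in WT and 42.6 to 66.7% in YAP7d, and summed macrophage markers were at 1745 to 4613 CPM in WT and 5943 to 9328 in YAP7d monocyte-like cells. The part of this shift in the Lgmn values of the class was not tested.

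Ctsh was lower in YAP7d than in WT monocyte-like cells without passing the test, at 989 and 723 CPM in WT and at 376, 442 and 419 in YAP7d (log2 -0.996, SE 0.38, adjusted p = 0.247). Ctsd was at 211 and 335 CPM in WT and at 343, 541 and 501 in YAP7d (log2 0.71, SE 0.33, adjusted p = 0.362). These 2 and Lgmn were the 3 of 10 genes that did not overlap, beside 38.2% of all genes. Ctss, at 3455 ± 961 CPM in WT and 3337 ± 193 in YAP7d, had a log2 difference of 0.00062 (SE 0.25). Of 10 class II loading genes tested, 3 fell: H2-Ab1 (log2 -1.78), H2-Aa (-1.72) and Cd74 (-1.60, adjusted p = 0.0385). Each of the 3 passed in 10 of 16 alternatives, and in 4 of the 8 fits that left out 1 library. Cd74 lost its call without either WT library (adjusted p = 0.244 without replicate 1 and 0.142 without replicate 2) and without YAP7d replicate 2 (0.134) or 3 (0.0866), and H2-Aa lost its call in these same 4 fits. H2-Ab1 lost its call without WT replicate 1 (log2 -1.12), YAP3d replicate 3, or YAP7d replicate 2 or 3. Between YAP7d and YAP3d 0 of the 10 genes were called, beside 0.272% of all genes, with 3 of the 10 and 728 of all genes at an unadjusted p under 0.05, and 0 of the 10 and 38 of all genes by DESeq2.

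In endothelial-like cells 4 of the 10 genes passed the test between YAP7d and WT. Ctsl and Lgmn fell, and Ifi30 and Ctsc rose from low levels. Over all 7465 genes tested 18.4% were called and 8.73% were called as lower, so the background in this class is large. Ctsl was at 1586 and 1702 CPM in WT, at 1648, 1038, 1689 and 1049 in YAP3d, and at 1016, 1181 and 811 in YAP7d. Both WT libraries lay above all YAP7d libraries, YAP3d spread over both ranges, and the log2 difference was -0.70 (SE 0.21, adjusted p = 0.0302). Lgmn was at 659 and 821 CPM in WT, at 652, 614, 580 and 692 in YAP3d, and at 515, 501 and 509 in YAP7d. Every YAP7d library was below every other library, and the log2 difference from WT was -0.51 (SE 0.16, adjusted p = 0.0359).

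Ifi30 was at 7.09 and 10.8 CPM in endothelial-like cells of WT, at 6.94, 32.3, 26.9 and 23.8 in YAP3d, and at 58.7, 22.5 and 61.3 in YAP7d. The counts behind these levels were 6 and 25 in WT and 13, 5 and 55 in YAP7d. The log2 difference was 2.46 (SE 0.46, adjusted p = 0.0015), and it stayed past the threshold in all 18 alternatives run, from 2.12 to 2.96. Against YAP3d it was 1.201 (SE 0.38, adjusted p = 0.0379), 1 of 10 genes beside 17.1% of all genes, and this call was lost without YAP3d replicate 1 (0.0608), 3 (0.0585) or 4 (0.0658), or without YAP7d replicate 1 (0.0739) or 3 (0.339). Ctsc was at 8.28 and 13.4 CPM in WT, at 3.47, 64.6, 30.4 and 16.5 in YAP3d, and at 18.1, 36.1 and 49.0 in YAP7d (log2 1.78, SE 0.59, adjusted p = 0.0455). YAP3d covered the range of both other groups for Ctsc.

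The low levels of Ifi30 and Ctsc in endothelial-like cells can be set beside those of macrophage markers in the same cells. Ifi30 was at 1.19 and 2.16% of the macrophage-like level of the same library in WT and at 1.54 to 4.74% in YAP7d, and Ctsc at 0.579 and 0.744% and at 0.964 to 3.34%. The 12 macrophage markers summed were at 1.23 and 1.57% in WT and 1.58 to 3.42% in YAP7d, which is 376 to 571 and 402 to 838 CPM, with none of them at 0 in WT and at most 2 at 0 in YAP7d. In endothelial-like cells with fewer than 2 UMIs of macrophage genes, Ifi30 had 1 and 4 counts in WT (1.34 and 6.44 CPM). In YAP7d, 9, 6 and 0 such cells were left, with 1 and 0 counts. The part of macrophage RNA in these values was not tested. Ctsl and Lgmn stood at 287 to 495% and 22.1 to 26.2% of the macrophage-like level in YAP7d.

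The endothelial-like class of YAP7d was also made of other cells than that of WT. Cluster 21 held 17 of 24, 17 of 23 and 60 of 64 cells of the YAP7d libraries and 0 cells of WT, where clusters 8, 4 and 7 made up the class. Summed endothelial markers stood at 23791 to 26376 CPM in WT and at 10178 to 10775 in YAP7d. Ctsl was at 1059, 1222 and 797 CPM in cluster 21 of YAP7d, below the 1817 and 1876 of cluster 8 in WT, while clusters 4 (1172 and 1339) and 7 (1329 and 1162) of WT overlapped with it. Lgmn, at 434, 494 and 507 CPM in cluster 21, was below clusters 8 (737 and 927) and 4 (524 and 538) of WT, and its highest library was level with the lower one of cluster 7 (566 and 507). Whether the falls are changes within a kind of endothelial cell or a change of kinds cannot be told apart here.

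The calls of Ctsl, Lgmn and Ctsc rested on few libraries. That of Ctsl was lost without WT replicate 1 (adjusted p = 0.0923), WT replicate 2 (0.134), YAP7d replicate 1 (0.0816) or YAP7d replicate 3 (0.121). Lgmn lost its call without either WT library (0.0525 without replicate 1 and 0.325 without replicate 2, where the log2 difference was -0.33), without YAP3d replicate 1 (0.0722) and without any of the YAP7d libraries (0.101, 0.121 and 0.0700). Ctsc lost it without either WT library (0.173 and 0.111), YAP3d replicate 3 (0.0528), YAP7d replicate 2 (0.0654) or YAP7d replicate 3 (0.349). In each case the direction was kept. With a term for the libraries with Gm10709 transcripts, Ifi30 alone of the 4 was called (adjusted p = 0.0456). DESeq2 called 2 of the 10 genes, Ifi30 and Ctsl, beside 918 of all genes.

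The other 6 genes did not pass the test in endothelial-like cells. Ctsd was at 557 and 670 CPM in WT and at 429, 442 and 498 in YAP7d without overlap (log2 -0.38, SE 0.17, adjusted p = 0.136), which made 5 of 10 genes without overlap beside 43.8% of all genes. Ctss was at 23.6 and 55.7 CPM in WT and at 58.7, 31.6 and 185 in YAP7d (log2 1.43, SE 0.57, adjusted p = 0.0931), so a single YAP7d library set its mean. Ctsb was at 955 ± 217 CPM in WT and 1006 ± 144 in YAP7d, and Ctsz at 144 ± 24.5 and 173 ± 21.0. Cst3 was at 703 ± 173 CPM in WT and 480 ± 220 in YAP7d (log2 -0.45, SE 0.31), and Ctsh at 14.8 ± 5.92 and 18.3 ± 16.6.

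**Figure D4:**
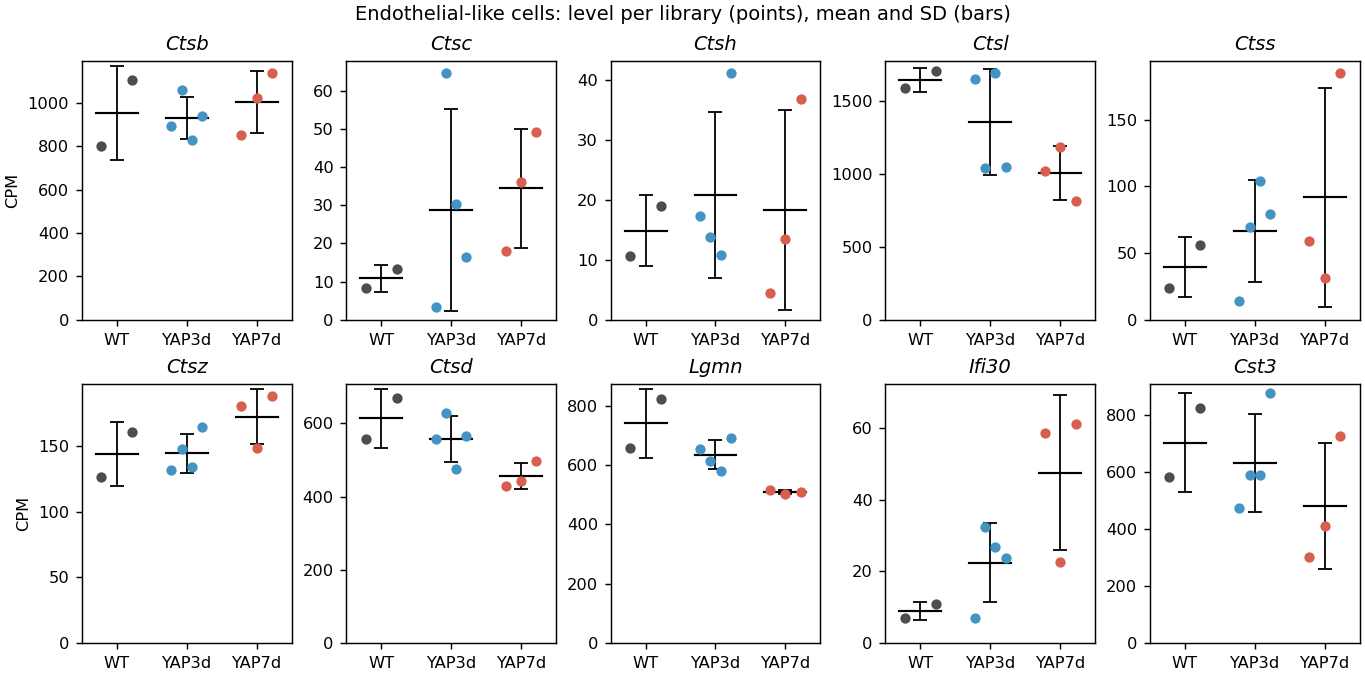
Level of each of the 10 genes in endothelial-like cells, in CPM on the vertical axis, for the WT, YAP3d and YAP7d libraries (points), with the mean (horizontal line) and SD (error bar) of each group. Ctsl and Lgmn of YAP7d lie below WT, Ifi30 and Ctsc lie above WT at levels under 65 CPM, and a single YAP7d library (185 CPM) sets the mean of Ctss.

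Of the 82 other lysosomal genes, 57 were tested in endothelial-like cells between YAP7d and WT, and 39 had a log2 difference below 0. Of the 57, 9 fell and 1 rose, beside 8.73% of all genes called as lower, and the median log2 difference was -0.34 beside -0.04 over all genes. Those that fell were 3 of 7 membrane genes, 4 of 28 hydrolases, 1 of 14 proton pump genes and 1 of 3 further cathepsins, while 0 of 1 cystatin and 0 of 4 sorting genes passed. Lamp2, a glycoprotein that coats the inside of the lysosomal membrane, was at 848 and 939 CPM in WT, at 788 to 903 in YAP3d, and at 402, 406 and 401 in YAP7d (log2 -1.11, SE 0.15, adjusted p = 0.00010). Its YAP3d libraries stayed near WT and its YAP7d libraries lay far below both. Man2b1, a lysosomal mannosidase, was at 199 ± 12.1 CPM in WT and 74.1 ± 9.58 in YAP7d (log2 -1.36, SE 0.27), and both genes passed in all 18 alternatives. Ids, a sulfatase, fell by 1.98 on the log2 scale and passed in 13 of 18. Gaa, the acid glucosidase that degrades glycogen, fell by 1.11 and passed in 4 of 18. Prcp, a lysosomal carboxypeptidase, was the gene that rose, from 79.4 ± 20.3 to 177 ± 8.45 CPM (log2 1.17, SE 0.29, adjusted p = 0.0110), and it lost its call without WT replicate 1 (adjusted p = 0.1003). Leaving out WT replicate 2 or YAP7d replicate 2 lowered the 9 falls to 4 and 5. Of 7 class II loading genes, 1 fell, Sppl2a, an intramembrane protease that removes the last fragment of Cd74 (log2 -1.33, SE 0.33, adjusted p = 0.0109). It lost its call without WT replicate 1 (adjusted p = 0.0590) or YAP7d replicate 3 (0.0651). Against YAP3d, 12 of the 57 genes fell and 1 rose, beside 17.1% of all genes called in either direction.

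The promoters of Ifi30, Lgmn and Ctsl are shown, as members called in endothelial-like cells whose windows hold the same motif. The sequences are RefSeq windows of 300 bases on GRCm38.p6, from 250 bases before to 50 after a start site, read 5′ to 3′ on the gene's strand, and 8 of the 10 genes had an entry. On this build the annotation places Ifi30 at chr8:70762773-70766663, Lgmn at chr12:102394082-102439728 and Ctsl at chr13:64361890-64370772, all protein coding, and the windows shown for Lgmn and Ctsl belong to start sites inside these spans. The 2 motifs below were searched on both strands. CACGTG, the E-box that lysosomal transcription factors of the TFEB family bind, is in capitals.
Ifi30, chr8:70766614-70766913, minus strand: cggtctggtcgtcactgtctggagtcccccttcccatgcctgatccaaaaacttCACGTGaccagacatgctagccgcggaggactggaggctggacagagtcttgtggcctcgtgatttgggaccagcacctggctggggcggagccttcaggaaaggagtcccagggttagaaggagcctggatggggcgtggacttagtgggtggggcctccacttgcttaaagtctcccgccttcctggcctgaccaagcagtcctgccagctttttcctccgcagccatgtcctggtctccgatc
Lgmn, chr12:102439043-102439342, minus strand: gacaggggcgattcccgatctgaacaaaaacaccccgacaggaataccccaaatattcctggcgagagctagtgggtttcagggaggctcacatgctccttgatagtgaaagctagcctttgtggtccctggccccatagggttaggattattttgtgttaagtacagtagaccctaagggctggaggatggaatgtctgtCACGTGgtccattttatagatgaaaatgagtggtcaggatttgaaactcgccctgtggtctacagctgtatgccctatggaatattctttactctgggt
Ctsl, chr13:64370471-64370770, minus strand: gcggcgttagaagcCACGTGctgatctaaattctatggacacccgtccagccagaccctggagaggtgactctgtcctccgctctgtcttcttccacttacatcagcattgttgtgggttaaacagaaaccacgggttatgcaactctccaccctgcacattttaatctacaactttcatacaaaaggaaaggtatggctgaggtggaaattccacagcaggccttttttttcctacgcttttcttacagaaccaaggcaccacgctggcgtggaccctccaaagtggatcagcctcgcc

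The E-box occurred in windows of 4 of the 8 genes, Ctsd, Ctsl, Lgmn and Ifi30, and in 7.15% of 32851 mouse promoter windows of the same length. In Lgmn it starts 49 bases before the start site of 1 of its RefSeq windows, and in Ifi30 196 bases before. GAAANNGAAA, the core of interferon-stimulated response elements, occurred in Ctss alone and in 3.44%. Genes with an E-box included 1 that rose (Ifi30) and 2 that fell (Ctsl and Lgmn) in endothelial-like cells.

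The change from WT to YAP7d was compared between endothelial-like and macrophage-like cells of the same libraries, with the library as a block. It differed for 1 of the 10 genes, Ctss, beside 1.11% of 7684 genes. The difference of its changes was 2.08 on the log2 scale (SE 0.50, adjusted p = 0.0185), with endothelial-like cells the higher. It was lost without WT replicate 1 (log2 1.67, adjusted p = 0.153) and without YAP7d replicate 3 (log2 0.76, adjusted p = 0.764), the library with the highest Ctss in endothelial-like cells. Ctss in endothelial-like cells was at 0.602 and 1.41% of the macrophage-like level in WT and at 1.24 to 9.61% in YAP7d, beside the summed macrophage markers at 1.23 and 1.57% and at 1.58 to 3.42%, and the class was mostly cluster 21 in YAP7d. The part of both in the Ctss result was not tested. For Ctsc the difference was 1.76 (SE 0.53, adjusted p = 0.0886), for Ctsh 1.47 (SE 0.49, adjusted p = 0.159) and for Ifi30 1.03 (SE 0.47, adjusted p = 0.454). For Lgmn it was -0.64 (SE 0.33, adjusted p = 0.546), so its fall in endothelial-like cells was not shown to differ from its change in macrophage-like cells. Of 8 class II loading genes tested in this way, 5 differed, led by Cd74 at 4.80 on the log2 scale, beside 1 of the 64 other lysosomal genes. Of the 5, H2-DMb1 passed in 7 of 12 alternatives (log2 1.03 to 2.42) and the other 4 in all 12.

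**Figure D5:**
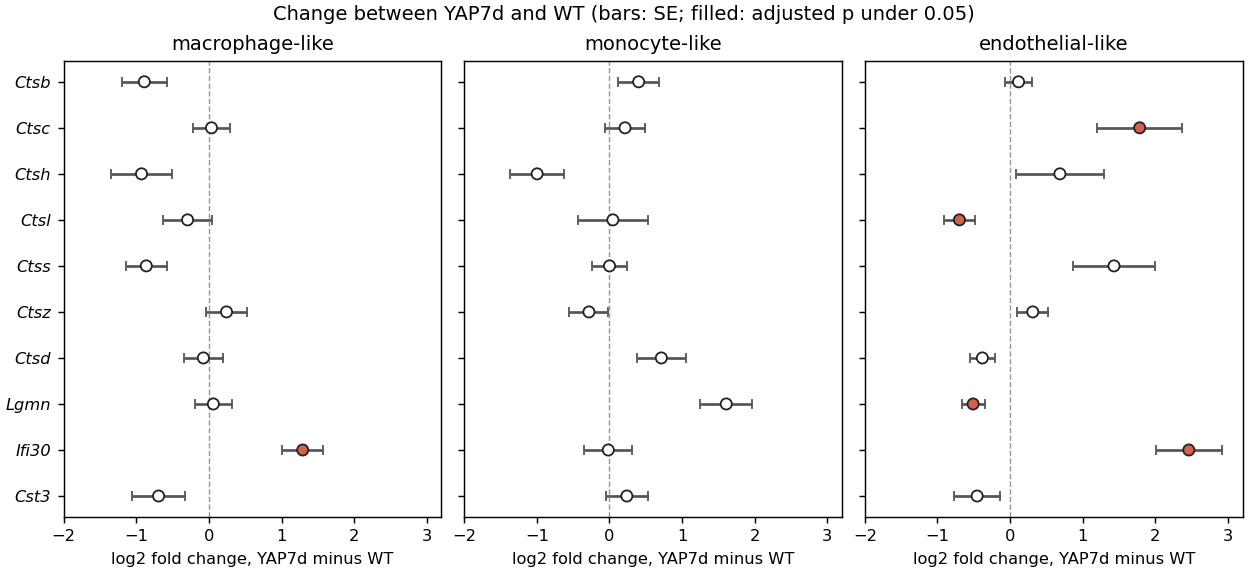
Log2 fold change between YAP7d and WT of the 10 genes (vertical axis) in macrophage-like, monocyte-like and endothelial-like cells, with bars for the SE and filled points for an adjusted p under the threshold. Filled points are Ifi30 in macrophage-like cells (1.29) and Ifi30, Ctsc, Lgmn and Ctsl in endothelial-like cells (2.46, 1.78, -0.51 and -0.70), and Lgmn in monocyte-like cells (1.61) is open.

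In lymphoid cells none of the 10 genes passed the test in any comparison. In T-cell-like cells 0 of 10 genes and 0 of 6527 genes in all were called between YAP7d and WT, with 2 of the 10 (Ctsc and Ifi30) and 574 of all genes at an unadjusted p under 0.05, and 0 of the 10 and 31 of all genes by DESeq2. Between YAP7d and YAP3d it was 0 of 10 beside 0.950% of all genes, with 4 of the 10 and 946 of all genes at an unadjusted p under 0.05, and 0 of the 10 and 111 of all genes by DESeq2. Ctsc in T-cell-like cells was at 48.6 and 60.4 CPM in WT and at 80.8, 88.4 and 86.2 in YAP7d (log2 0.67, SE 0.26, adjusted p = 0.478). Ctss was at 73.0 and 124 CPM in WT and at 134, 133 and 234 in YAP7d (log2 0.82, SE 0.45, adjusted p = 0.652). The class was also made up differently in these groups, as cluster 2 held 67.0 and 45.7% of its cells in WT and 40.7, 34.5 and 24.0% in YAP7d, and cluster 3 held 7.55 and 10.8% and then 21.98, 19.0 and 35.6%. Ctsc in cluster 2 was at 48.3 and 57.8 CPM in WT and at 83.0, 148 and 88.0 in YAP7d, without overlap. In cluster 10, another part of the class, Ctsc was at 44.9 and 54.4 CPM in WT and at 95.9, 48.4 and 91.8 in YAP7d, and in cluster 3 at 88.0 in WT replicate 2 and at 65.9, 17.9 and 81.1 in YAP7d, so its higher values were not seen in every cluster.

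NK-cell-like cells, second to macrophage-like cells in mean Ctsd over all groups, held it at 975 and 967 CPM in WT, at 940, 838, 1006 and 1004 in YAP3d, and at 689, 622 and 571 in YAP7d. The YAP7d libraries lay below all 6 others, with a log2 difference from WT of -0.52 (SE 0.19, adjusted p = 0.110) and from YAP3d of -0.46 (SE 0.16, adjusted p = 0.0706). The make-up of this class shifted as well: cluster 0 held 15 of 25 and 53 of 87 cells in WT and 27 of 90, 4 of 31 and 32 of 143 in YAP7d, and cluster 6 the others. Within cluster 0 Ctsd was at 1082 and 998 CPM in WT and at 685 and 585 in YAP7d replicates 1 and 3. Within cluster 6 it was at 795 and 918 CPM in WT and at 691, 578 and 568 in YAP7d, so the groups did not overlap in either cluster. Of the 8 genes tested, 0 were called against WT beside 6.62% of 4064 genes, with Ctss and Ctsd at an unadjusted p under 0.05, and 0 against YAP3d beside 13.1%, with the same 2 genes at an unadjusted p under 0.05. Over all genes 917 and 1137 were at an unadjusted p under 0.05. DESeq2 called 0 of the 8 in both comparisons, beside 222 and 367 of all genes. Ctsh and Ifi30 were too low to be tested in this class. Of 33 other lysosomal genes tested, Laptm4a, a lysosomal membrane protein, fell (212 ± 44.3 to 87.4 ± 13.4 CPM, adjusted p = 0.0465) and Arsb, a sulfatase, rose (76.6 ± 3.45 to 161 ± 41.5 CPM, adjusted p = 0.0499). Arsb passed in 4 and Laptm4a in 8 of 18 alternatives. Within cluster 6 Laptm4a was at 284 and 130 CPM in WT and at 96.8, 70.3 and 95.2 in YAP7d, and within cluster 0 at 220 and 214 and then at 75.6 and 113 in YAP7d replicates 1 and 3. Arsb overlapped between the groups within cluster 6, at 142 and 124 CPM in WT and at 139, 205 and 156 in YAP7d, and in cluster 0 it was at 33.8 and 50.3 and then at 121 and 75.2. The part of the shift between clusters in the calls of both genes was not tested.

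B-cell-like cells held the highest lymphoid levels of Ctss, Ctsh, Ctsz and Ifi30. Ctss was at 759 ± 86.9 CPM in WT and 717 ± 164 in YAP7d, and Ifi30 at 209 ± 0.444 and 231 ± 32.8. The 9 genes tested, without Ctsl, had 0 calls in all 3 comparisons, beside 0.0445% of 2247 genes between YAP7d and WT and 0 of 2247 in the other 2. Cst3 was at 330 and 378 CPM in WT and at 723, 452 and 565 in YAP7d (log2 0.69, SE 0.32, adjusted p = 0.997), and it was the 1 gene with an unadjusted p under 0.05 against WT. Ctsb was the 1 such gene against YAP3d. Over all genes 98 and 162 were at an unadjusted p under 0.05 in these 2 comparisons. DESeq2 called 0 of the 9 in each, beside 0 and 11 of all genes. In the 3 lymphoid classes summed macrophage markers went from 0.158 to 0.611% of the macrophage-like level in WT to 0.851 to 2.68% in YAP7d, and their part in the higher Ctss, Lgmn and Ifi30 values of T-cell-like and NK-cell-like cells was not tested.

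After 3 days of YAP none of the 10 genes passed the test against WT in any of the 6 classes, and 0 genes of the whole table were called by edgeR or by DESeq2, with 19 to 288 genes per class at an unadjusted p under 0.05. At an unadjusted p under 0.05 were Ctss in macrophage-like cells and Ifi30 in endothelial-like cells, 1 gene in each of these 2 classes and 0 in the other 4. Ctss in macrophage-like cells was at 3941 ± 22.6 CPM in WT and 2575 ± 613 in YAP3d, a log2 difference of -0.69 (SE 0.27, adjusted p = 0.985). Without YAP3d replicate 2 that of Ctss was -0.52 (SE 0.22). Ifi30 in macrophage-like cells differed by 0.0064 on the log2 scale (SE 0.27). For endothelial-like cells the log2 difference of Ifi30 was 1.26 (SE 0.44, adjusted p = 0.9999). These p-values do not show that the groups were alike.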

How the data were processed

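The authors deposited 1 table of raw UMI counts per gene and cell for the 9 libraries. Per the labels' processing notes it was made with Cell Ranger on mm10, with Seurat 2 downstream, and the study's methods name the same kit version for all of these libraries. The counts were used as deposited. Cells with under 200 detected genes (35 cells) were left out, and counts were scaled to 10000 per cell for clustering only. With scanpy 1.11.5, 2423 variable genes without the 10 genes, their lists and cell-cycle-correlated genes gave 30 principal components, 15 neighbours and 24 Leiden clusters (resolution 1), each named from at least 3 raised markers. The 60 called doublets (0.704%) were kept.

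Counts of a class were summed per library where it had at least 10 cells, filtered for low counts, TMM-normalized and tested over all groups in edgeR 4.0.16 (quasi-likelihood, Benjamini-Hochberg adjustment over all genes), and DESeq2 1.42.0 was an alternative. The change between classes was tested with the library as a block. On simulated counts with 200 genes changed by 2 on the log2 scale between YAP7d and WT, the test recovered 67.0% of them in macrophage-like (6033 genes), 54.5% in monocyte-like (7713) and 82.5% in endothelial-like cells (7465), with 6.29, 4.39 and 7.30% of calls false. In T-cell-like (6527), NK-cell-like (4064) and B-cell-like cells (2247) it recovered 81.5, 80 and 85.5%, with 4.68, 3.61 and 7.07% false. Levels are CPM of the summed counts. Depth was 1314878 to 25056881 UMIs per library. The members and lists were chosen with earlier results of these data known. The genes named beyond the members are the 5 with the largest change in each direction among called genes of the lists, and the most alike in pattern for some members. Some results of the pattern comparison and the motif search are not reported here. Neutrophil-like and dendritic-like cells had fewer than 2 libraries in a group and were described by levels only. RefSeq promoter windows were on GRCm38.p6.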

Additional observations from a re-analysis of the deposited data

Results flagged for a closer look

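In lymphoid cells, single YAP3d libraries stood apart from the other 3 for 6 gene and class pairs. Ctsl was at 49.3 CPM in T-cell-like cells of YAP3d replicate 4 against 8.76 to 14.2 in the others, and at 82.3 CPM in its NK-cell-like cells against 0 to 9.21. The libraries with 0 counts, YAP3d replicates 1 and 3, allow up to 32.8 and 60.4 CPM. In the NK-cell-like cells of YAP3d replicate 4, Cst3 was at 404 CPM against 203 to 221. Ctss was at 20.1 CPM, which is 1 count, in NK-cell-like cells of YAP3d replicate 3 against 76.5 to 82.9. In B-cell-like cells of YAP3d replicate 2, Ctsh was at 201 CPM against 319 to 339, and Lgmn at 45.6 CPM against 106 to 118. Of 50 groups looked at in this way, chance marks about 1 in 20.

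The change of Ctss from WT to YAP7d differed between endothelial-like and macrophage-like cells, by 2.08 on the log2 scale (SE 0.50, edgeR adjusted p = 0.0185). The 3 YAP7d libraries ranged from 31.6 to 185 CPM in endothelial-like cells, and without YAP7d replicate 3 the difference was 0.76. Summed macrophage markers there went from 1.23 and 1.57% of the macrophage-like level in WT to 1.58 to 3.42% in YAP7d, and the class was mostly cluster 21 in YAP7d, which held 0 cells of WT.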

How the results depend on the processing

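Counts of the 10 genes called depended on the processing as follows, and no called value changed direction. Between YAP7d and WT, macrophage-like cells had 3 calls by DESeq2, 2 with a replicate block, and 0 with all myeloid classes summed, under a stricter cell filter (500 genes or more per cell, 10% mitochondrial counts or less), with classes from marker scores, or with a term for libraries with Gm10709 transcripts. Monocyte-like cells had 1 call by DESeq2, with no filter on low counts, or with a replicate block. Endothelial-like cells had 2 by DESeq2 and 1 with the Gm10709 term, and T-cell-like cells had 2 with no filter. Between YAP7d and YAP3d, macrophage-like cells had 2 with all myeloid classes summed and 0 with the stricter filter or the Gm10709 term. Endothelial-like cells had 0 by DESeq2, with at least 4000 UMIs per cell, with a replicate block or with the Gm10709 term. With no filter, monocyte-like cells had 1, T-cell-like 3 and NK-cell-like cells 3. With a replicate block, T-cell-like cells had 3 between YAP7d and YAP3d and 1 between YAP3d and WT. The causes were not tested.

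The replicate numbers were not taken to pair the libraries, since deviations of same-numbered libraries correlated between -0.43 and 0.31. All pairs of replicates 1 were above 0 (lowest 0.034), and pairs of replicates 3 below 0. Leaving out 1 library at a time gave, between YAP7d and WT, 0 to 3 calls in macrophage-like, 0 to 1 in monocyte-like and 1 to 4 in endothelial-like cells, and 0 to 4 for the difference between the last and the first. Between YAP7d and YAP3d it gave 0 to 1 in macrophage-like, endothelial-like and T-cell-like cells and 0 to 2 in NK-cell-like cells.

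Class II falls in macrophage-like cells numbered 0 with all myeloid classes summed or the Gm10709 term. Of the other lysosomal genes, 2 fell in endothelial-like cells with that term. Of 173 uncalled values of the 10 genes, 20 passed under at least 1 alternative and 90 changed sign. Macrophage-like cells numbered 11 to 148 per library. The 4000 UMI setting could not be run in macrophage-like and B-cell-like cells, the one without macrophage-marker cells in endothelial-like and NK-cell-like cells, or marker scores in monocyte-like cells.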

Other observations

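Some classes had too few libraries for a comparison of groups. In plasmacytoid dendritic-like cells Ctsl was at 1589 CPM in WT replicate 2, 1464 in YAP3d replicate 4, and 1806 and 1364 in YAP7d replicates 1 and 3. In type 1 dendritic-like cells, which present antigen to cytotoxic T cells, Cst3 was at 20834 and 21401 CPM in WT, 20552 in YAP3d replicate 4 and 17690 in YAP7d replicate 3. In type 2 dendritic-like cells Ifi30 was at 634 CPM in WT replicate 2, at 275 to 786 in YAP3d, and at 921, 938 and 837 in YAP7d. In the same cells Lgmn was at 117 CPM in WT replicate 2 and at 201, 278 and 265 in YAP7d, above all 4 YAP3d libraries (108 to 173). In neutrophil-like cells Ctss was at 1003 CPM in YAP7d replicate 3 and at 79.2 to 176 in the other 3 libraries with enough cells. That YAP7d library held 401852 UMIs in 52 such cells, against 37879 to 130550 UMIs in 15 to 45 cells of the others. Ctsc was also higher in it (286 against 0 to 53.6 CPM), and Ctsd was lower (455 against 684 to 1135). The part of depth and of RNA from other myeloid cells in these values was not tested.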
